A study of Mus musculus with 5 samples.

Results

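The genes described here are 45 imprinted genes of the mouse, named as a list of symbols and found by symbol in a table of transcript levels. All 45 symbols were present, with 108 of the table's 37142 transcripts, and the FPKM values of a symbol's transcripts were summed. FPKM counts fragments relative to the length of the transcript and to the size of the library, so it is a level per length. The whole table held 22399 symbols. The study measured poly(A) RNA from the neurogenic niches of the adult mouse brain and from a control tissue. The groups were the subventricular zone (SVZ, 2 samples, called biological replicates in the labels), the olfactory bulb (OB, 1 sample), the dentate gyrus (DG, 1 sample) and the striatum (STR, 1 sample, the non-neurogenic control). All 5 samples were from adult males of the C57BL/6 strain with a wild type genotype, and each region was microdissected acutely and then frozen. The number of mice behind a sample, and whether mice were pooled, is not given in the labels used here.

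An imprinted gene is transcribed mainly from the copy inherited from the mother or mainly from the copy inherited from the father. The choice is set by DNA methylation laid down in the germ line at control regions, and imprinted genes often lie in clusters that share such a region and a long noncoding RNA. Many of them act in growth, in placenta and in brain. Several are known to be imprinted only in some tissues, for example Dcn and Phlda2 mainly in placenta and Ube3a in neurons. Grb10 and Gnas are imprinted in opposite or partial ways in different cell types. C57BL/6 is an inbred strain and FPKM values carry no allele information, so the values below are total levels, and the parent of origin of a transcript was not measured.

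The SVZ of a living brain lines the lateral ventricle and borders the striatum. Both SVZ libraries held ependymal and neuroblast markers (summed FPKM of 10 genes 410.1 and 234.1, against 11.9 in STR and 31.35 in DG). The OB library held 336.1 on this list, of which Dlx1 alone held 167.3, so the sum does not mark the SVZ against OB. Both SVZ libraries also held striatal neuron markers at about the level of the striatum itself (5163 and 4093, against 4406 in STR). Markers of OB neurons summed to 2188 in OB and to between 73.14 and 718.3 in the other libraries. Pcp4l1 alone held 685.7 of the 718.3, the sum in SVZ sample 1. Markers of granule neurons summed to 1677 in DG and to between 107.4 and 476 in the others. Slc17a7 alone held 453 of the 476, the sum in OB. The OB library had the highest sum of 12 markers of meningeal and perivascular fibroblasts, 2260, against 152 to 282.4 in the other 4 libraries. Ptgds alone held 2178 of the OB sum and 141.4 to 264.4 in the other libraries. The 9 choroid plexus markers summed to 34.58 and 33.4 in the SVZ libraries, 23.19 in DG, 12.97 in STR and 5.364 in OB. Endothelial and mural markers lay between 86.35 and 151.6, oligodendrocyte markers between 857.3 in DG and 3168 in SVZ sample 1, and markers of hypothalamus and septum between 9.614 and 86.29. Trh, also in the list of OB neuron markers, held 75.1 of the 86.29, the sum in OB. These are bulk samples, in which fewer cells of a type and less RNA per cell cannot be told apart. The DG library listed 16725 transcripts at 0, against 9564 to 10807 in the others, and 7090 symbols at 0, against 4154 to 4874. The 5th percentile of its transcript values above 0 was 0.122 FPKM, against 0.0167 to 0.0292 in the others. Low values in DG are therefore less sure than in the other libraries.

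The 5 libraries fell into 2 sets that cut across the regions, SVZ sample 1 with OB and DG, and SVZ sample 2 with STR. The sets are not in the labels. Between the SVZ samples, 11.3% of 13966 symbols were at least 1 log2 unit higher in sample 1 and 3.11% lower, whereas between SVZ sample 2 and STR the shares were 4.25% and 1.21% of 13686. Regions were therefore compared within a set, as differences of log2(FPKM + 1), on which folds of low genes are understated. Each such comparison has 1 library a side and no test, so the gap between the SVZ samples is the only measure of spread. That gap lies across the 2 sets, so it mixes sample spread with the set difference and is not a spread within a set. Where 3 values and then 2 are given for a gene, they are in the order SVZ sample 1, OB and DG, then SVZ sample 2 and STR. The test that used all 5 libraries was limma, whose 1 residual degree of freedom is the SVZ pair. Its SVZ mean takes 1 sample from each set, while OB, DG and STR each lie in 1 set. On the deposited values it gave no symbol with an adjusted p under 0.05 in any of 4 pairs of regions (some under other settings, given with the limma counts), so members are described as higher or lower in a library and by the size of the difference.

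Promoters of 35 members were found in the RefSeq promoter table (GRCm38.p6), 52 in all, each running from 250 bases before to 50 bases after a start site. They held a median of 15 CpG sites, against 7 over the 32851 promoters of the table, and a median observed to expected CpG ratio of 0.614 against 0.384. TGCCGC, the core of the motif bound by Zfp57, a zinc finger protein that keeps methylation at imprinted control regions, was searched on both strands. It occurred in 12 member promoters (23.1%), of 11 members, and in 3813 of all promoters (11.6%). Of the 12, 2 are windows of Mest that start 3 bases apart. TGCCGC itself holds a CpG, and member promoters held more CpG sites, so the shares of 23.1% and 11.6% are not matched for CpG content. GCCATNTT, the core bound by Yy1, occurred in 2 member promoters (3.85%) and in 1988 of all (6.05%). The windows of Peg3 and Usp29, neither with a TGCCGC match, overlap by 263 bases, so the windows are not all independent. The 4 sequences that follow belong to members on which the results turn: Dlk1 and Nnat, which were higher in the SVZ library of both sets, Plagl1, which was low in DG, and Rasgrf1, which was lower in the SVZ libraries. They are written 5′ to 3′ on the strand of the gene, with a match to either motif in capitals; a match on the opposite strand reads GCGGCA.
Dlk1 (chr12:109452573-109452872, plus strand): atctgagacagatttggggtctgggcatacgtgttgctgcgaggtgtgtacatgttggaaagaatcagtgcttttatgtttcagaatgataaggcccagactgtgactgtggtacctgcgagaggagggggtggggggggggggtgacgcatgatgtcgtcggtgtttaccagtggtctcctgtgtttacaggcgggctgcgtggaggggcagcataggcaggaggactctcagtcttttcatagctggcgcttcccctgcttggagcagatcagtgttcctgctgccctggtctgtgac
Nnat (chr2:157559828-157560127, plus strand): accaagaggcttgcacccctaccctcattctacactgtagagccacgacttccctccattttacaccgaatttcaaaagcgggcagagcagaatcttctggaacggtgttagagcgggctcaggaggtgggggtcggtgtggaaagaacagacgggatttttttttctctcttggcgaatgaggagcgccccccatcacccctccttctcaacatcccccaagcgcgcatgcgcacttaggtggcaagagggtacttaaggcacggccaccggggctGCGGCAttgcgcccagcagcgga
Plagl1 (chr10:13090582-13090881, plus strand): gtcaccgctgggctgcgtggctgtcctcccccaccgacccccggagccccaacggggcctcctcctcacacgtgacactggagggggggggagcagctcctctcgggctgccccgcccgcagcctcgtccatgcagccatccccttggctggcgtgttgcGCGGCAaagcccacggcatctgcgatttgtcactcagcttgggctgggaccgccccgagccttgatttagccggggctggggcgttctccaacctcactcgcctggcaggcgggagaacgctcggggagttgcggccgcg
Rasgrf1 (chr9:89909525-89909824, plus strand): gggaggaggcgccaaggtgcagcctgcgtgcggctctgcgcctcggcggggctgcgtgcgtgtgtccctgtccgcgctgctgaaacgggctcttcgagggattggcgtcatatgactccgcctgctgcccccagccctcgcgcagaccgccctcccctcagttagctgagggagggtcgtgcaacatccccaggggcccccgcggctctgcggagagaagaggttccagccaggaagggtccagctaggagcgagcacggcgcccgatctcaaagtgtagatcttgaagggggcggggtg
These windows held 9, 17, 26 and 26 CpG sites in that order. Nnat and Plagl1 each held 1 match to the Zfp57 core, and neither the Dlk1 nor the Rasgrf1 window held the letters of either motif.

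Most of the imprinted genes were transcribed in these tissues. Of the 45, 40 reached 1 FPKM in at least 1 library, 31 in all 5, and 10 reached 100 FPKM. The noncoding RNA Meg3 ranked at percentile 99.7 of all symbols or above in each library, Gnas at 99.2 or above and Nnat at 93.6 or above. The 5 that stayed under 1 FPKM were H19, a noncoding RNA of the Igf2 locus (0 to 0.696 FPKM), Kcnq1ot1, the noncoding RNA of the Kcnq1 cluster (0.327 to 0.624), Asb4, an adaptor for a ubiquitin ligase (0.0243 to 0.589), Calcr, the calcitonin receptor (0 to 0.570), and Phlda2, listed at 0 in every library. Asb4 and Calcr were low everywhere, and both were higher in the SVZ libraries (Asb4 0.589 and 0.298, Calcr 0.346 and 0.570) than in the other 3 (Asb4 at most 0.185, Calcr at most 0.0148).

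**Figure D1:**
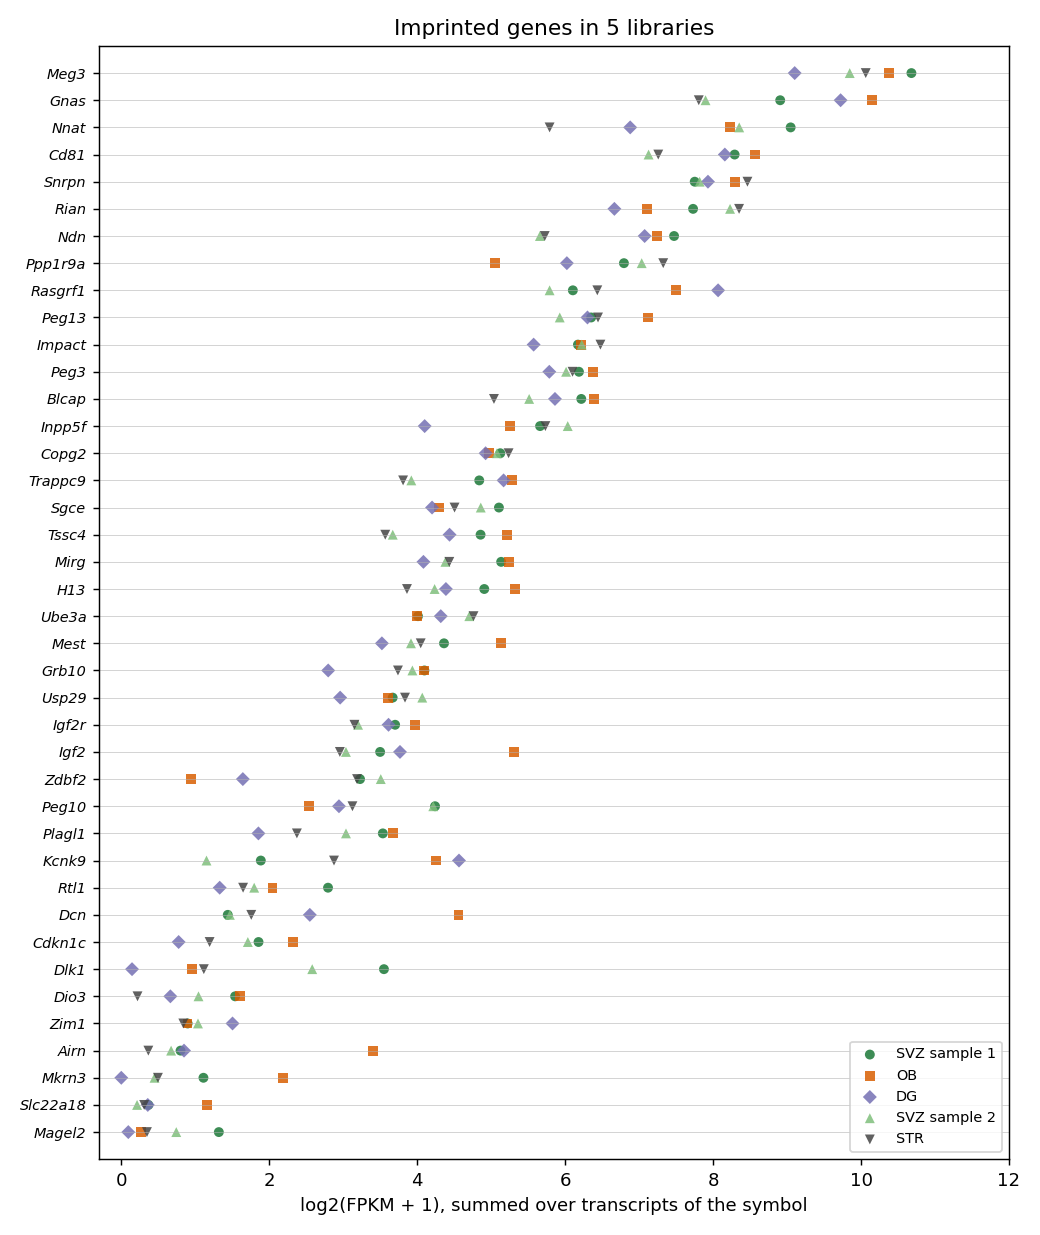
Level of the 40 imprinted genes that reached 1 FPKM in a library, ordered by median level over the libraries. The horizontal axis is log2(FPKM + 1) and each point is 1 library, with both SVZ samples in green. Meg3 lies at the top, from 549 FPKM in DG to 1641 in SVZ sample 1, and the DG diamonds lie at the left end of many lines.

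More imprinted genes were low in DG than high in it, compared with the other libraries of its set. Among the 38 members at 1 FPKM or more in SVZ sample 1 or DG, 14 (36.8%) were at least 1 log2 unit higher in SVZ sample 1 and 3 (7.9%) lower, against 12.9% and 5.7% of the 14025 symbols compared. Between OB and DG, 12 of 38 (31.6%) were higher in OB and none lower, against 14.4% and 5.42% of 13900 symbols. The median member differed by 0.65 between SVZ sample 1 and DG (all symbols 0.16) and by 0.64 between OB and DG (all symbols 0.25). Of the 40 detected members, 27 (67.5%) had their lowest value of the set in DG, where 51.6% of symbols did. Both comparisons use the DG library, so their counts are not independent, and the DG library is also the one with the most transcripts listed at 0. Rescaling the libraries to a common median ratio brought the median of all symbols to 0.02 in both comparisons, and after subtracting the median of all symbols 10 members were higher and 3 lower in SVZ sample 1 than in DG (all symbols 10.09% and 7.43%), and 10 higher and 1 lower in OB than in DG (9.691% and 8.014%). With SVZ sample 2 in place of sample 1, which lies across the sets, 10 members were higher and 7 lower than in DG (all symbols 11.96% and 15.28%).

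SVZ sample 1 and OB differed in both directions. Of 39 members, 5 (12.8%) were at least 1 log2 unit higher in SVZ sample 1, namely Dlk1, Zdbf2, Ppp1r9a, Peg10 and Magel2, against 7.75% of 14253 symbols. Another 7 (17.9%) were lower, Dcn, Airn, Kcnk9, Igf2, Rasgrf1, Gnas and Mkrn3, against 9.2%. The median member difference was -0.14, and that of all symbols -0.07. With SVZ sample 2 in place of sample 1, 14 members were lower (all symbols 26.14%) and 5 higher (9.509%). In the other set, SVZ sample 2 and STR were close: of 36 members, 3 (8.3%) were higher in SVZ sample 2, Nnat, Dlk1 and Peg10, and 1 (2.8%) was lower, Kcnk9, against 4.25% and 1.21% of 13686 symbols. The median member difference there was 0.09, against 0.06 for all symbols. With SVZ sample 1 in its place, 13 members were higher and none lower than in STR (all symbols 18.73% and 3.743%). The comparisons of SVZ sample 1 with OB and with DG share that SVZ library.

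**Figure D2:**
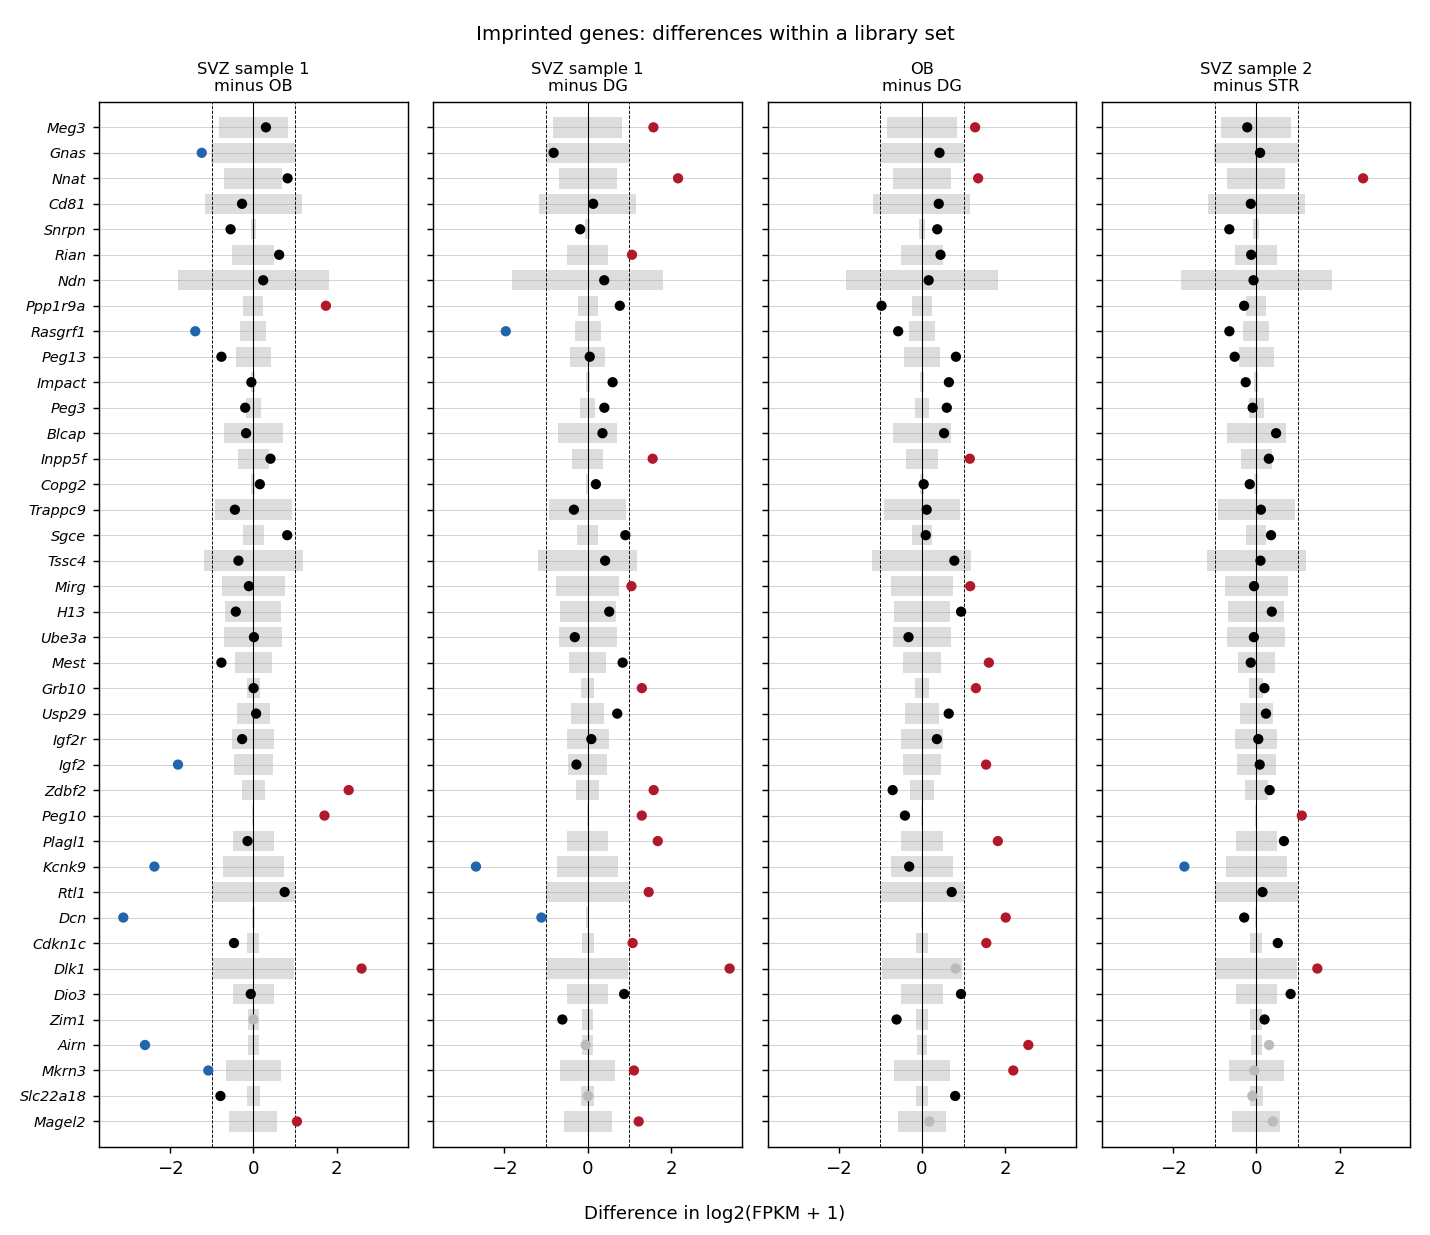
Differences in log2(FPKM + 1) of the same 40 genes in the 4 within-set comparisons, 1 library a side. Red and blue points lie at least 1 unit above or below 0 (dashed lines), grey points were under 1 FPKM in both libraries, and grey bars span the gap between the SVZ samples on either side of 0. Nnat, Dlk1 and Peg10 are red in the panel of SVZ sample 2 and STR, and Kcnk9 is blue.

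Dlk1 was the secreted or membrane ligand with the clearest SVZ level. It encodes a noncanonical Notch ligand and lies in the Dlk1-Dio3 cluster on chromosome 12 (chr12:110691033-110701546 in mm9). It is classed here as paternally expressed, but which copy was transcribed in these samples was not measured. Dlk1 stood at 10.7 FPKM in SVZ sample 1, 0.938 in OB and 0.106 in DG, and at 4.98 in SVZ sample 2 and 1.17 in STR. Both SVZ libraries were above the other 3, and the SVZ libraries themselves differed by 0.97 on the log2 scale. The differences were 2.60 to OB, 3.41 to DG and, in the other set, 1.47 to STR. With the SVZ sample of the other set they were 1.63, 2.44 and 2.43. In limma, over both SVZ samples, the log2 difference was 2.11 ± 0.53 to OB, 2.92 ± 0.53 to DG and 1.95 ± 0.53 to STR (SE; 2 SVZ libraries against 1 library), with adjusted p = 0.179, 0.136 and 0.688. All 10 SVZ markers of ependymal cells and neuroblasts were at least 1 log2 unit higher in SVZ sample 1 than in DG and in SVZ sample 2 than in STR. Against OB, 6 of the 10 were higher in SVZ sample 1 and 3 lower, the neuroblast genes Dcx (-1.16), Dlx1 (-1.59) and Sp8 (-3.08). Their part in the Dlk1 difference was not tested.

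Of 14 other Notch pathway genes, 1 of 14 was at least 1 log2 unit higher in SVZ sample 1 than in OB (all symbols 7.75%) and 2 of 14 than in DG (12.9%). In OB, 5 of 13 were higher than in DG (14.4%), and none of 13 was higher in SVZ sample 2 than in STR (4.25%). None was lower in any of the 4 comparisons. Hes5, a transcriptional target of Notch, differed most, with 23.1, 33.4 and 6.04 FPKM in SVZ sample 1, in OB and in DG. Dlk2, the paralog of Dlk1, was lower in SVZ sample 1 (13.6 FPKM) than in OB and DG (25.4 in each), and higher in SVZ sample 2 (10.7) than in STR (7.78), each difference under 1 log2 unit. The receptor Notch2 was lowest in STR, 3.27 FPKM against 5.45 in SVZ sample 2 (a log2 difference of 0.60), and stood 0.96 lower in SVZ sample 1 than in OB. Hey1, another Notch target, was 0.54 higher in SVZ sample 1 than in OB and 0.14 lower in SVZ sample 2 than in STR. The ligand Jag1 was 0.68 lower in OB than in DG.

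Igf2 and Dcn were highest in the OB library. Igf2 (chr7:149836673-149856261, mm9) encodes a growth factor. It is classed here as paternally expressed, but whether 1 copy or both were transcribed in these samples was not measured. Igf2 stood at 10.3 FPKM in SVZ sample 1, 38.6 in OB, 12.6 in DG, 7.21 in SVZ sample 2 and 6.75 in STR. Only OB stood apart, and the SVZ sample 2 and STR values were close together. The difference of SVZ sample 1 from OB was -1.81, beyond the SVZ pair's gap of 0.46, and limma gave -2.04 ± 0.47 (SE; adjusted p = 0.16). Dcn encodes decorin, a proteoglycan of connective tissue, and stood at 1.71, 22.6 and 4.85 FPKM in SVZ sample 1, in OB and in DG, and at 1.77 and 2.38 in SVZ sample 2 and STR. The SVZ samples differed by 0.03 and the OB value lay 3.12 above SVZ sample 1, the largest difference of any member from OB. In limma Dcn differed by -3.11 ± 0.40 between SVZ and OB (SE; adjusted p = 0.0793) and by 2.01 ± 0.46 between OB and DG (adjusted p = 0.208).

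Beside these, the 12 meningeal and perivascular fibroblast markers summed to 2260 FPKM in OB, 152 in SVZ sample 1 and 282.4 in DG. Ptgds alone held 2178, 141.4 and 264.4 of these sums. Of the 12, 11 were at least 1 log2 unit lower in SVZ sample 1 than in OB, 10 of 12 were higher in OB than in DG, and none was listed at 0 in any library. Their part in the Igf2 and Dcn differences was not tested. Of the IGF system, 5 of 13 genes were lower in SVZ sample 1 than in OB with none higher (all symbols 9.2% and 7.75%), and 7 of 13 were higher in OB than in DG with none lower (14.4% and 5.42%). Igfbp2, a secreted binding protein for IGFs, stood at 11.1, 170.6 and 28.4 FPKM in SVZ sample 1, in OB and in DG, and at 3.07 and 3.40 in SVZ sample 2 and STR. SVZ sample 1 and DG differed in 1 of 12 genes each way (12.9% and 5.7%), and SVZ sample 2 was higher than STR in 1 of 11 (4.25%), Igfbp5 (59.5 against 18.0 FPKM). The remaining genes that the naming rule took from this list were Igfbp4, 0.998 higher in SVZ sample 1 than in DG, Irs2, 0.30 higher in SVZ sample 1 than in OB and 0.57 lower in OB than in DG, and Igfbp6, 0.54 lower in SVZ sample 2 than in STR.

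**Figure D3:**
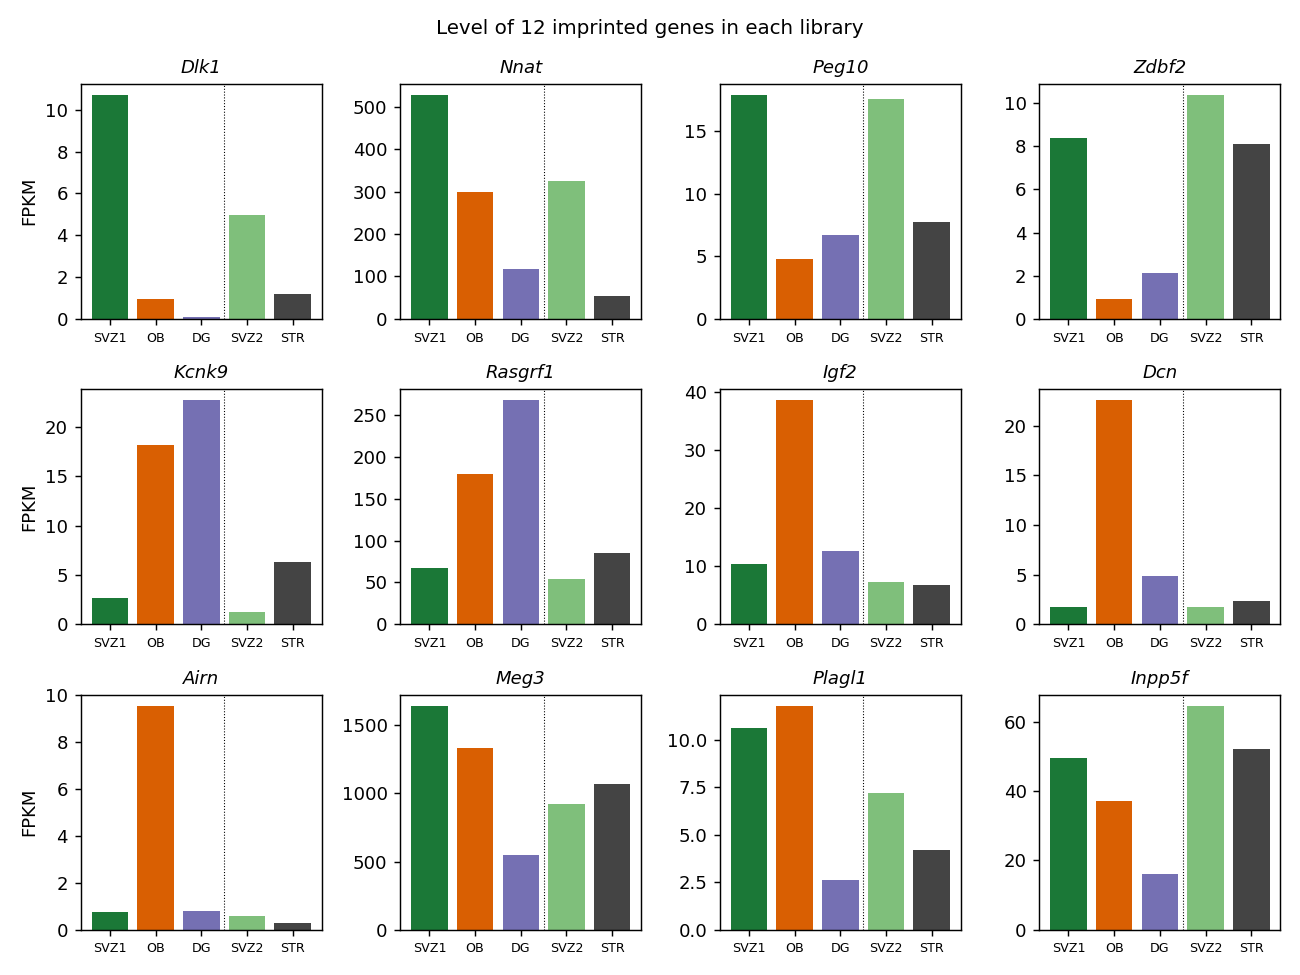
Level in FPKM of 12 imprinted genes, 1 bar per library, with a dotted line between the library sets and a separate vertical scale from 0 for each gene. Dlk1, Nnat and Peg10 are highest in both SVZ libraries relative to the rest of their set, Kcnk9 and Rasgrf1 are highest in DG, and Igf2, Dcn and Airn stand out in OB alone.

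Among the receptors and other membrane proteins, Nnat and Kcnk9 differed between SVZ and the other regions in opposite directions. Nnat encodes neuronatin, a small membrane protein of the endoplasmic reticulum made during neural development, and is paternally expressed. It stood at 529 FPKM in SVZ sample 1, 299 in OB and 117 in DG, and at 326 in SVZ sample 2 and 54.3 in STR. SVZ sample 2 was 6.00-fold above STR, a log2 difference of 2.56 against a gap of 0.70 between the SVZ samples, and SVZ sample 1 was 0.82 above OB and 2.17 above DG. limma gave 2.91 ± 0.60 between SVZ and STR (SE; adjusted p = 0.447) and 1.82 ± 0.60 between SVZ and DG (adjusted p = 0.31). Both SVZ samples exceeded every other library, though the OB level of 299 FPKM lay close to the 326 of SVZ sample 2, and STR was the lowest.

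Kcnk9 encodes TASK3, a potassium leak channel, and is maternally expressed in brain. Its level was 2.70 FPKM in SVZ sample 1, 18.2 in OB and 22.7 in DG, and 1.22 in SVZ sample 2 and 6.34 in STR. Both SVZ libraries were lower than every other library. The differences were -2.37 to OB, -2.68 to DG and -1.72 to STR, where the SVZ samples differed by 0.73, and limma gave -2.74 ± 0.53 to OB and -3.05 ± 0.53 to DG (SE; adjusted p = 0.124 and 0.133). With SVZ sample 1, the difference to STR was -0.99. OB and DG differed by 0.31, less than the SVZ samples did.

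The other membrane proteins differed by less than 1 log2 unit within a set. Blcap, an apoptosis-linked membrane protein whose gene encloses Nnat on the opposite strand, was at 73.5, 83.0 and 57.2 FPKM in SVZ sample 1, in OB and in DG, and at 44.7 and 31.9 in SVZ sample 2 and STR. Sgce encodes epsilon-sarcoglycan, and its FPKM values were 33.4, 18.6, 17.4, 28.0 and 21.7 in the same order. Sgce was higher in SVZ in all 3 comparisons, by 0.81, 0.90 and 0.35, each beyond the SVZ pair's gap of 0.25 but under 1 log2 unit. Igf2r, the receptor that clears Igf2, stayed between 7.89 and 14.7 FPKM. Cd81, a tetraspanin, lay between 285 and 377 FPKM in SVZ sample 1, in OB and in DG, and at 139 and 152 in SVZ sample 2 and STR. For Cd81 the SVZ samples differed by 1.16, more than any of its within-set differences. H13, a signal peptide peptidase, stood at 29.0, 39.2 and 19.9 FPKM, and at 17.8 and 13.5; OB exceeded DG by 0.94, beyond the gap of 0.67 between the SVZ samples. Slc22a18, an organic cation transporter-like protein, reached 1.23 FPKM in OB and at most 0.289 elsewhere.

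Among signalling proteins and enzymes, Rasgrf1 was lower in SVZ than in each other library. Rasgrf1 is a calcium-responsive exchange factor for Ras in neurons, paternally expressed in neonatal brain (chr9:89804613-89921817, mm9). Its level was 67.8 FPKM in SVZ sample 1, 179.7 in OB and 267 in DG, and 54.3 in SVZ sample 2 and 85.5 in STR. The differences were -1.39, -1.96 and -0.65, and the SVZ samples differed by 0.31. limma gave -1.55 ± 0.49 to OB and -2.12 ± 0.49 to DG (SE; adjusted p = 0.268 and 0.187). Of 10 granule neuron markers, 9 were at least 1 log2 unit lower in SVZ sample 1 than in DG (summed FPKM 107.4 and 1677). In OB (476), 9 of 10 were also lower than in DG, where OB minus DG for Rasgrf1 was only -0.57. The part of these markers in the Rasgrf1 differences was not tested.

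Ppp1r9a, Inpp5f and Grb10 were each low in a single region of the first set. Ppp1r9a encodes neurabin, which anchors protein phosphatase to actin in dendritic spines, and stood at 110.0, 32.2 and 64.1 FPKM in SVZ sample 1, in OB and in DG, and at 130.2 and 159 in SVZ sample 2 and STR. OB was the lowest and STR the highest, and SVZ sample 1 was 1.74 above OB (limma 1.86 ± 0.47, SE; adjusted p = 0.18). Against OB, striatal neuron markers moved the same way, with all 10 at least 1 log2 unit higher in SVZ sample 1. They summed to 5163 FPKM in SVZ sample 1, 315.9 in OB and 87.92 in DG. OB minus DG was -0.97 for Ppp1r9a, whereas 4 of 10 markers were higher in OB and none lower (all symbols 14.4% and 5.42%). The part of these markers was not tested. Inpp5f, a phosphoinositide phosphatase, stood at 49.6, 37.1 and 16.2 FPKM in SVZ sample 1, in OB and in DG, and at 64.6 and 52.2 in SVZ sample 2 and STR. Grb10, an adaptor that restrains insulin and IGF receptor signalling, stood at 16.1, 16.1 and 5.95 FPKM, and at 14.3 and 12.4. For both, DG was the lowest of the 5 libraries, and the SVZ to DG difference was 1.56 for Inpp5f and 1.30 for Grb10 (limma 1.75 ± 0.46 and 1.22 ± 0.44, SE; adjusted p = 0.219 and 0.351).

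The summed level of Gnas was high in OB and DG and low in SVZ sample 2 and STR. Gnas encodes the stimulatory G protein alpha subunit and further products from alternative promoters. Its sum stood at 479, 1132 and 845 FPKM in SVZ sample 1, in OB and in DG, and at 238 and 223 in SVZ sample 2 and STR. The difference of SVZ sample 1 from OB was -1.24, and the SVZ samples themselves differed by 1.01. With SVZ sample 2 it was -2.25. The sum rests on transcripts that differ between the library sets. The Gnas transcript of 1746 bases stood at 312, 970 and 612 FPKM, and at 0.00384 and 16.5. The Gnas transcript of 1452 bases stood at 139, 126 and 213 FPKM, and at 155 and 135. How far the assignment of reads to transcripts enters the Gnas differences was not tested. Mest, a hydrolase-like protein, was at 19.6, 34.0 and 10.5 FPKM, and at 14.1 and 15.5, so that OB exceeded DG by 1.61 (limma 1.61 ± 0.54, SE; adjusted p = 0.366). Impact, a regulator of translation through Gcn2, was lowest in DG with 46.6 FPKM and lay between 71.2 and 88.1 in the other 4. Dio3, which inactivates thyroid hormone, was low throughout: 1.91, 2.03 and 0.584 FPKM in SVZ sample 1, in OB and in DG, and 1.06 and 0.164 in SVZ sample 2 and STR. STR was the lowest for Dio3, 0.82 below SVZ sample 2, and limma gave 1.07 ± 0.35 between SVZ and STR (SE; adjusted p = 0.816).

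Of 6 thyroid hormone genes compared, 2 were higher in SVZ sample 1 than in OB (all symbols 7.75%), 1 was lower in OB than in DG (5.42%), 1 was higher in SVZ sample 2 than in STR (4.25%) and none differed by 1 log2 unit between SVZ sample 1 and DG. Ttr, the thyroid hormone carrier made by the choroid plexus, accounted for 3 of these 4 calls, with 15.1, 0.950 and 17.6 FPKM in SVZ sample 1, in OB and in DG, and 18.2 and 6.37 in SVZ sample 2 and STR. Thrb, a thyroid hormone receptor, was the other, with 11.2 FPKM in SVZ sample 1 and 2.47 in OB, and it stood 0.90 above DG. Dio2, which activates the hormone and so acts opposite to Dio3, was 0.82 lower in SVZ sample 1 than in OB and 0.66 lower than in DG, and OB stood 0.15 above DG. The receptor Thra differed by 0.11 between SVZ sample 2 and STR.

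Among nuclear proteins, Zdbf2 and Plagl1 differed most. Zdbf2, a zinc finger protein known for its role in feeding circuits, stood at 8.37 FPKM in SVZ sample 1, 0.919 in OB and 2.12 in DG, and at 10.4 in SVZ sample 2 and 8.11 in STR. OB and DG were the low libraries, while the SVZ and STR values lay close together. SVZ sample 1 exceeded OB by 2.29 and DG by 1.58, and the SVZ samples differed by 0.28 (limma 2.43 ± 0.43 and 1.72 ± 0.43, SE; adjusted p = 0.107 and 0.204). Plagl1, a zinc finger transcription factor that controls other imprinted genes, stood at 10.6, 11.8 and 2.61 FPKM in SVZ sample 1, in OB and in DG, and at 7.21 and 4.18 in SVZ sample 2 and STR. DG was the lowest, by 1.68 against SVZ sample 1 and 1.82 against OB (limma 1.43 ± 0.48 and 1.82 ± 0.55, SE; adjusted p = 0.316 and 0.31).

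Cdkn1c, a cyclin-dependent kinase inhibitor that holds progenitors out of the cell cycle, was also lowest in DG. It stood at 2.62, 3.99 and 0.712 FPKM in SVZ sample 1, in OB and in DG, and at 2.27 and 1.29 in SVZ sample 2 and STR. The differences were 1.08 between SVZ sample 1 and DG and 1.54 between OB and DG (limma 1.01 ± 0.34 and 1.54 ± 0.39, SE; adjusted p = 0.319 and 0.239). With SVZ sample 2 the difference to DG was 0.94. The remaining nuclear members differed by less than 1 log2 unit within a set. Ndn, a neuronal growth suppressor of the MAGE family, stood at 177, 149.8 and 134 FPKM in the first set and at 49.5 and 51.9 in the other. Its SVZ samples differed by 1.81, the largest gap between the SVZ samples of any member. Snrpn, a spliceosome protein, lay between 215 and 352 FPKM, highest in STR, which exceeded SVZ sample 2 by 0.65. Peg3, a zinc finger protein, lay between 54.2 in DG and 82.4 in OB. Tssc4, a spliceosome assembly factor, lay between 20.7 and 36.1 FPKM in the first set and at 11.7 and 10.9 in the other. Zim1, a zinc finger gene, reached 1.84 FPKM in DG and lay between 0.788 and 1.05 elsewhere.

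Among the ubiquitin genes, Mkrn3 and Magel2 were the ones past 1 log2 unit, both at low levels. Mkrn3, a ubiquitin ligase, stood at 1.16, 3.57 and 0 FPKM in SVZ sample 1, in OB and in DG, and at 0.366 and 0.410 in SVZ sample 2 and STR. OB was the highest and DG was listed at 0; the difference of SVZ from DG was 1.11 with sample 1 and 0.45 with sample 2, and from OB -1.08 and -1.74. Magel2, which assists a ubiquitin ligase in protein recycling, stood at 1.49 FPKM in SVZ sample 1, 0.208 in OB and 0.0680 in DG, and at 0.674 in SVZ sample 2 and 0.272 in STR. Both SVZ libraries were above the other 3, but Magel2 differed by 0.58 between the SVZ samples, its differences to OB and DG were 1.05 and 1.22 with sample 1 and 0.47 and 0.65 with sample 2, and it was not compared with STR, since neither library reached 1 FPKM. Ube3a, the ligase lost in Angelman syndrome, lay between 14.96 and 18.96 FPKM in the first set and stood at 25.1 and 26.1 in the other. Usp29, a deubiquitinase, was lowest in DG with 6.77 FPKM and lay between 11.1 and 15.8 in the others.

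Of the retrotransposon-derived genes and the trafficking genes, Peg10 differed by over 1 log2 unit between SVZ and each other region. Peg10, a capsid-like gene essential for placenta, stood at 17.9 FPKM in SVZ sample 1, 4.80 in OB and 6.69 in DG, and at 17.6 in SVZ sample 2 and 7.72 in STR. The SVZ values differed by 0.02 on the log2 scale and lay above the other 3 by 1.71, 1.30 and 1.09 (limma 1.69 ± 0.44 to OB and 1.29 ± 0.44 to DG, SE; adjusted p = 0.184 and 0.325). Rtl1, another gene of this kind in the Dlk1-Dio3 cluster, stood at 5.94, 3.12 and 1.51 FPKM, and at 2.47 and 2.13, with a difference of 1.46 between SVZ sample 1 and DG and a gap of 1.00 between the SVZ samples. The coatomer subunit gene Copg2 lay between 29.4 and 36.7 FPKM in all 5 libraries. Trappc9, a subunit of a vesicle tethering complex, lay between 27.6 and 37.9 FPKM in the first set and at 14.15 and 13.02 in the other.

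The noncoding RNAs of the Dlk1-Dio3 cluster were abundant and lowest in DG. Meg3, maternally expressed and transcribed from the same strand as Dlk1, stood at 1641, 1331 and 549 FPKM in SVZ sample 1, in OB and in DG, and at 920.3 and 1069 in SVZ sample 2 and STR. Rian, a host of small nucleolar RNAs, stood at 211, 137 and 101 FPKM, and at 299 and 326. Mirg, a host of microRNAs, stood at 34.1, 36.8 and 16.0 FPKM, and at 19.8 and 20.6. All 3 were at their lowest in DG, and SVZ sample 1 exceeded DG by 1.58, 1.06 and 1.05, beyond the gaps of 0.83, 0.50 and 0.75 between the SVZ samples. SVZ sample 2 minus STR gave -0.22, -0.12 and -0.05, less than those gaps. In all, 5 of the 6 cluster members were at least 1 log2 unit higher in SVZ sample 1 than in DG (all symbols 12.9%), and Dio3 was 0.88 higher. With SVZ sample 2 in its place, Rian (1.56) and Dlk1 (2.44) were past 1 log2 unit, and Meg3 (0.74), Mirg (0.30) and Rtl1 (0.47) were not. For Meg3 this value and the gap of 0.83 are of the sum over its transcripts. Its catalogue transcript of 755 bases stood at 505, 388 and 173 FPKM, and at 87.5 and 107. Its RefSeq transcript of 11410 bases stood at 271, 198 and 129 FPKM, and at 286 and 291. On RefSeq transcripts only, SVZ sample 1 exceeded DG by 1.21 for Meg3. After centring on the median of all symbols, Rian and Mirg stood at 0.90 and 0.89.

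Airn, the noncoding RNA that silences paternal Igf2r, stood at 9.56 FPKM in OB and at 0.742, 0.800, 0.595 and 0.289 in SVZ sample 1, DG, SVZ sample 2 and STR. Only OB reached 1 FPKM. SVZ sample 1 was 2.60 below OB and OB was 2.55 above DG, where the SVZ samples differed by 0.13, and limma gave -2.66 ± 0.30 between SVZ and OB with adjusted p = 0.0714, the lowest of any member in the 4 pairs. On RefSeq transcripts only, the differences were -1.81 to OB and 1.48 between OB and DG. Igf2r, which lies on the opposite strand in the same assembled locus (chr17:12875272-13061009, mm9), differed by 0.27 between SVZ sample 1 and OB. Whether the libraries kept strand is not given in the labels used here, so reads of overlapping genes on opposite strands cannot be told apart; this touches Airn with Igf2r, Nnat with Blcap, Mest with Copg2 and Kcnq1ot1 with Kcnq1. Peg13, a noncoding RNA inside Trappc9, stood at 80.7, 138 and 77.9 FPKM, and at 59.9 and 86.1, highest in OB.

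By the parent whose copy is transcribed where the gene is imprinted, the members were classed as 22 paternal, 21 maternal and 2 that depend on the tissue. The maternal class includes genes imprinted only in some tissues, for example Dcn, Phlda2 and Ube3a. Other members of the classes may also show no parental bias in these tissues. The classes do not say which copy was used in these samples. Between SVZ sample 1 and DG, 9 of 20 paternal members compared were at least 1 log2 unit higher and 1 lower, and 4 of 16 maternal members were higher and 2 lower (all symbols 12.9% and 5.7%). Between OB and DG the counts were 7 of 19 paternal and 4 of 17 maternal higher, with none lower (14.4% and 5.42%). Between SVZ sample 1 and OB, 4 of 21 paternal members were higher and 4 lower, and 1 of 16 maternal members was higher and 2 lower (7.75% and 9.2%). The 3 members higher in SVZ sample 2 than in STR were all paternal (3 of 18), and the 1 lower was maternal (1 of 16), where all symbols gave 4.25% and 1.21%. Neighbouring members share a cluster, so these counts are not of independent genes, and no difference between the parental groups was tested.

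No member had an adjusted p under 0.05 in limma in any of the 4 pairs. At an unadjusted p under 0.05, 4 members were higher and 7 lower in SVZ than in OB of 40 tested, beside 14.4% of 14546 symbols. The counts were 9 higher and 3 lower of 38 in SVZ against DG (13.8% of 14337 symbols), 8 higher and none lower of 38 in OB against DG (12% of 13900) and 3 higher and none lower of 38 in SVZ against STR (5.19% of 14128). The 3 in the last pair were Nnat, Dlk1 and Dio3. The absence of calls depended on the settings. After median ratio scaling, limma gave an adjusted p under 0.05 to 5 of 40 members between SVZ and OB (Airn, Dcn, Dlk1, Kcnk9 and Zdbf2; 4.84% of symbols), to 2 of 38 between SVZ and DG (Dlk1 and Kcnk9; 4.31%) and to 1 of 38 between OB and DG (Airn; 1.97%). With the variance model fitted to each pair's own symbols, it did so for 2 (Airn and Dcn; 1.93%), 1 (Kcnk9; 1.93%) and 2 members (Airn and Mkrn3; 4.49%) of the same pairs. Neither setting gave a call between SVZ and STR. The limma errors take the spread of every region to be that of the SVZ samples, which lie in different library sets.

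Which transcript of a gene carried its level followed the library set. For 17 members with at least 2 transcripts at 1 FPKM, the leading transcript was the same in SVZ sample 1 and OB for 16, in SVZ sample 1 and DG for 14 and in SVZ sample 2 and STR for 13, but in the 2 SVZ samples for only 8. The Nnat transcript of 1210 bases took 68.0%, 75.2% and 57.5% of its gene's FPKM in SVZ sample 1, in OB and in DG, and 26.6% and 22.1% in SVZ sample 2 and STR. For Gnas the transcript of 1746 bases took 65.1%, 85.7% and 72.4%, against 0.00162% and 7.41%. The Sgce transcript of 1696 bases took 56.5%, 49.8% and 44.6%, and was listed at 0 in SVZ sample 2 and STR. For Grb10 the transcript of 5089 bases took 55.3%, 61.3% and 100% in the first set and 22.6% and 27.3% in the other. The same split was seen in 52 short microRNA transcripts (61 to 121 bases) between Meg3 and Dio3, of which 2, 2 and 1 were above 0 in SVZ sample 1, OB and DG, and 21 and 27 in SVZ sample 2 and STR. Whether this split bears on the summed levels was not tested.

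**Figure D4:**
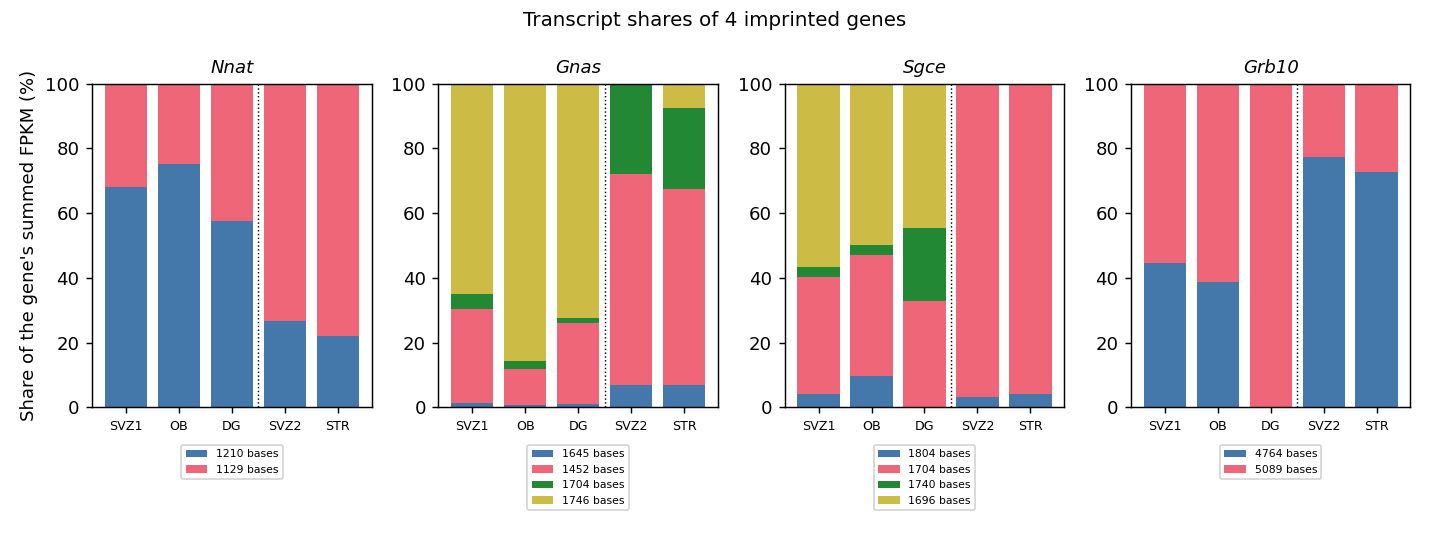
Share of a gene's summed FPKM, in percent, taken by each of its transcripts in the 5 libraries, for Nnat, Gnas, Sgce and Grb10; colours are transcripts named by length in bases, transcripts under 1% in every library are left out, and the dotted line divides the library sets. The SVZ sample 2 bars resemble STR and not SVZ sample 1, as in the Nnat transcript of 1210 bases at 26.6%, 22.1% and 68.0%.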

How the data were processed

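Poly(A) RNA was measured in 5 libraries from 4 brain regions. The authors deposited 1 table of FPKM values for 37142 transcripts, 28150 of them RefSeq and 8992 of the authors' noncoding RNA catalogue. CASAVA, TopHat 1.2.0, Cufflinks 1.0.0 and the mm9 build are named per the submitters' processing notes, with no role or order. The sources used here do not give strandedness. FPKM values carry no read counts, so the depth is unknown and no counting interval or floor is given; zeros may be failed estimates.

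FPKM values were summed per symbol. Differences are of log2(FPKM + 1) between single libraries, over symbols at 1 FPKM or more in either, and counted past 1 log2 unit. A moderated linear model with a mean-variance trend (limma 3.58.1, R 4.3.3) was fitted to log2(FPKM + 1) of all 5 libraries, over symbols at 1 FPKM or more in any library, with Benjamini-Hochberg adjustment over those at 1 FPKM or more in either region of a pair; every adjusted p in the text is from it. That single fitted set of symbols was chosen after the calls of another choice, a fit to each pair's own symbols, had been seen, and the closing section gives both. The fit was tested on simulated data. Since it is not stated that the SVZ samples came from separate mice, p-values measure the spread between these samples only. Coordinates of genes are mm9 as deposited, counted from 1; promoters are RefSeq GRCm38.p6, and strands came from GENCODE by symbol. Sums were made in Python 3.11.15 with numpy 2.4.6 and pandas 2.3.3.

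The members, the gene lists and the marker lists were chosen with earlier results of these data known. Members with a within-set difference of 1 log2 unit or a level of 5 FPKM were named with values, and from each other gene list the gene with the largest difference each way at 5 FPKM or more. Parental expression and roles were assigned from general knowledge. The alternatives tried were another pseudocount, no filter or a higher one, median ratio scaling, RefSeq transcripts only, the other SVZ sample, centring, and other limma settings.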

Additional observations from a re-analysis of the deposited data

How the results depend on the processing

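Values rest on 1 library a side, and the limits below are those of 5 libraries with unknown depth. No paired analysis was possible because OB, DG and STR have 1 sample each and a term for the library set leaves 0 residual degrees of freedom in limma. None of the 45 named differences changed sign under any alternative run, but not all stayed past 1 log2 unit. With the other SVZ sample, 7 of 29 differences to OB or DG lay under it (Magel2 to both, and Meg3, Mirg, Rtl1, Cdkn1c and Mkrn3 to DG) and 9 moved by over 1.5 times, as did 2 of 4 to STR, where Kcnk9 was at -0.99. Median ratio scaling took 7 of 45 under it, centring 6 and RefSeq transcripts only 1 (Meg3 between OB and DG, 0.73); 2 moved by over 1.5 times with RefSeq transcripts only (that one and Airn between OB and DG) and 7 with a pseudocount of 0.1. Leaving out the SVZ sample of the set and using the other, the members at least 1 log2 unit lower in SVZ than in OB went from 7 to 14 and those lower than in DG from 3 to 7. The members higher in SVZ than in STR went from 3 to 13 and those lower from 1 to 0. Members lower in OB than in DG numbered 0 (all symbols 5.417%). With a pseudocount of 0.1 they numbered 2 (Zim1 and Zdbf2, all symbols 6.914%). Median ratio scaling gave 1 (7.316%) and centring on the median of all symbols gave 1 (8.014%), Ppp1r9a in both. The share of higher among called members then went from 100% to 87.5%, 90.91% and 90.91%. Of the members called either way, those higher made up 41.67% in SVZ against OB and 26.32% with the other SVZ sample, where their number stayed at 5, and 82.35% and 58.82% in SVZ against DG. Limma calls among members over the 4 pairs numbered 0, but 8 with median ratio scaling and 5 with the variance model fitted to each pair's own symbols, an alternative added after the data were seen, as were centring and the minimum of 5 FPKM. With 1 residual degree of freedom the calls thus depended on scaling and on the symbols that entered the fit; the cause was not tested.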

Other observations

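A further list held 38 genes described as imprinted, 35 of which were found in the table (not Snurf, Zfp264 and Zim2 under those symbols). Whether they are imprinted in these tissues was not measured. More of them were low in DG than high, in the same DG library as above, so these counts are not independent of those of the members. Of the 35, 8 were listed at 0 in DG, against 0 to 4 in the other libraries. Of 23 compared, 8 were at least 1 log2 unit higher in SVZ sample 1 than in DG and none lower (all symbols 12.9% and 5.7%), and 10 were higher in OB than in DG and none lower (14.4% and 5.42%). Between SVZ sample 1 and OB, 2 of 24 were higher and 5 lower (7.75% and 9.2%), and between SVZ sample 2 and STR none of 21 was higher and 1 was lower (4.25% and 1.21%). Th, the enzyme of dopamine synthesis and also an OB neuron marker, stood at 2.50, 200.3 and 0.311 FPKM in SVZ sample 1, in OB and in DG. Cobl, an actin nucleator, was high in SVZ and STR: 22.3, 4.71 and 1.39 FPKM, and 26.4 and 29.8 in SVZ sample 2 and STR. Ipw, a noncoding RNA near Snrpn, was the 1 gene lower in SVZ sample 2 (12.96 FPKM) than in STR (33.5). Dlx5, a transcription factor of neuroblasts, was the highest relative to STR, 19.4 against 10.8 FPKM, and Casd1, a sialic acid acetyltransferase, was the lowest in OB relative to DG, 22.2 against 25.9.

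Of 23 regulators of imprints and DNA methylation, 2 of 19 were higher in SVZ sample 1 than in OB (all symbols 7.75%), 2 of 19 than in DG (12.9%), 1 of 18 in OB than in DG (14.4%) and 3 of 19 in SVZ sample 2 than in STR (4.25%), with none lower in any of the 4 comparisons. All but the last of these shares are near or below those of all symbols. Zfp57, whose motif core was searched in the promoters, stood at 13.6, 12.5 and 8.51 FPKM in SVZ sample 1, in OB and in DG, and at 10.1 in SVZ sample 2 against 1.07 in STR, so STR was the only low library. Uhrf1, which brings Dnmt1 to replicating DNA, stood at 7.68, 0.517 and 0.482 FPKM, and at 4.51 and 0.170, highest in both SVZ libraries. Ezh2, a histone methyltransferase of the Polycomb group, was also highest there, with 12.6, 4.52 and 2.12 FPKM, and 9.82 and 3.20. Dnmt3a, a de novo methyltransferase, was 1.35 higher in OB than in DG on the log2 scale (46.6 and 17.7 FPKM). Dnmt1, the maintenance methyltransferase, stood at 26.6 FPKM in SVZ sample 1 and 41.4 in OB, Arid4a at 14.5, 13.8 and 21.5 in SVZ sample 1, OB and DG, and Ehmt2, a histone methyltransferase, at 41.9 in SVZ sample 2 and 46.9 in STR.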
